A study of Mus musculus with 9 samples.

Results

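The 44 genes described here encode the contractile apparatus and the fibre-specific enzymes of skeletal muscle, without its myosin heavy chains and troponins. They were listed by symbol and make up 44 of the 53700 gene IDs of the table, each matching exactly 1 ID. The list was chosen by the values of these genes in the tumour-bearing libraries, so every comparison with those libraries is a description: calls there are counted, and nothing is read from them. The tissue was eWAT, the epigonadal white fat that lies around ovary and uterus, and its RNA was sequenced in 9 female NSG mice (NOD/SCID/IL2Rγ-null, a strain that lacks mature lymphocytes) at week 12. The genotype of all 9 is labelled wild type, without further alleles. Mice 4, 7 and 10 were untreated, although the text of the study speaks of tumour-free and of PBS-treated controls. Mice 36, 37 and 41 received extracellular vesicles (EVs) of MDA-MB-231, a triple-negative cell line from a human breast cancer, through the tail vein, 10 times in 5 weeks. Mice 17, 21 and 22 carried an orthotopic tumour, in the mammary fat pad, of the same cell line. Levels below are CPM (counts relative to the library total) after TMM scaling, a correction for library composition, and libraries are named by group and mouse number.

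A skeletal muscle fibre is packed with sarcomeres, repeating units in which thin filaments of actin slide past thick filaments of myosin. The thin filaments are anchored in the Z-disc at each end of the unit, the thick filaments are tied together at the M-band in its middle, and titin spans from one to the other. Fast fibres rely on glycogen and glycolysis, slow fibres on oxygen held by myoglobin, and each kind uses its own isoforms of light chains and Z-disc proteins. White fat contains no such fibres, but smooth muscle of its vessels and nearby organs shares a few of these genes.

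Library totals ran from 20097743 to 26149300 counts, with TMM factors of 0.756 to 1.32. The tissue label was checked against marker lists, written as summed CPM over the list. Fat cell markers (9 genes) summed to 47100 to 55800 CPM in the tumour-bearing libraries, to 70600 in untreated 4 and 46000 in EV 37, and to 2400 to 12700 in the other 4. Those 4 held other tissue. Ovary markers (8 genes) summed to 2930 to 6010 CPM in untreated 10, EV 36 and EV 41. Smooth muscle markers (9 genes) summed to 16600 CPM in untreated 7. Epidermal markers (6 genes) summed to 1150 CPM in untreated 7, nearly all from Krt5 and Ivl, with 23516 and 9378 counts. Krt14, Krt1, Krt10 and Lor had only 96, 63, 214 and 12 counts there. Mammary epithelium markers (7 genes), Krt8 and Krt18 among them, summed to 1900 CPM in the same library. Which epithelium was present was not tested. In the tumour-bearing libraries ovary markers summed to 23.8 to 61.3 CPM and epidermal markers to 2.83 to 7.42 CPM. Untreated 4 and EV 37 are called the fat-rich tumour-free libraries below, and untreated 10, EV 36 and EV 41 the ovary-containing libraries, names given after these values were seen.

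Promoter sequences are shown first because a short motif was frequent among them. RefSeq promoter windows, from 250 bases before to 50 bases after an annotated start (GRCm38.p6), were found for 32 of the 44 members. CAGCTG, an E-box of the kind that myogenic factors such as MyoD bind, was present on either strand in a window of 18 of these 32 members (56.2%), against 18.3% of 27025 genes. The MEF2 site was present for 7 members (21.9%, against 3.7%) and the CArG box, the site of serum response factor, for 4 (12.5%, against 1.81%). TATAAA was present for 6 members (18.8%, against 15.7%), near its share among all genes. The 4 motifs were searched independently a MEF2 site or CArG box can share bases with TATAAA, and a match is a description of the letters, not a binding site. The 150 bases before the start of 6 members are printed 5′ to 3′ on the gene's own strand, with every match in capitals. These 6 were chosen by name and each holds a match, so they do not stand for all 32. Actn2, Csrp3, Mybpc2, Smtnl1, Tmod4, Trim72 and Unc45b held none of the 4 motifs in a window.
Mylpf, chr7:127211458-127211607, plus strand: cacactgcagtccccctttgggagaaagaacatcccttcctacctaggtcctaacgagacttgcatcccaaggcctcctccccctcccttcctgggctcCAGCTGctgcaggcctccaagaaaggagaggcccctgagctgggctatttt
Klhl41, chr2:69669970-69670119, plus strand: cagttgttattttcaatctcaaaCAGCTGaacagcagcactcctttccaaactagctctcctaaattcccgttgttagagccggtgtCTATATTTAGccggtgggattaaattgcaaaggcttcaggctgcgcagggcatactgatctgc
Pgam2, chr11:5803797-5803946, minus strand: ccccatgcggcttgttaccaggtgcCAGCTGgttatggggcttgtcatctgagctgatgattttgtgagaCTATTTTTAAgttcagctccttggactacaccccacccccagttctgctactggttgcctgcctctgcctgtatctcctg
Mb, chr15:77022788-77022937, minus strand: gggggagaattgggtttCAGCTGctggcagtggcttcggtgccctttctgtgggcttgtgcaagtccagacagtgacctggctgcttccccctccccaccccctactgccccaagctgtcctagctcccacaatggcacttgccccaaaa
Acta1, chr8:123894776-123894925, minus strand: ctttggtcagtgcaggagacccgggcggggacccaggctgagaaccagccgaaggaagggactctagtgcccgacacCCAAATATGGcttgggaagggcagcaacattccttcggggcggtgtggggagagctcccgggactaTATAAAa
Myl3, chr9:110763528-110763677, plus strand: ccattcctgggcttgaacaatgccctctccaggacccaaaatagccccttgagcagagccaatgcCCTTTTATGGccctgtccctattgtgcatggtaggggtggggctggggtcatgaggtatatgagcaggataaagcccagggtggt
The capitals mark the E-box alone in Mylpf, ending 46 bases before the start, and in Mb, ending 128 bases before it. In Klhl41 and Pgam2 an E-box, ending 122 and 120 bases before the start, is followed by a MEF2 site ending 54 and 71 bases before it. In Acta1 a CArG box ends 64 bases before the start and TATAAA ends 2 bases before it, and in Myl3 a CArG box ends 76 bases before the start. Mb has 3 annotated starts in the table and the window printed is the one with an E-box within these 150 bases.

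In the tumour-bearing libraries all 44 members were present, at 4.37 to 1834 CPM, and their sum was 2602 CPM in tumour 17, 6158 CPM in tumour 21 and 3321 CPM in tumour 22. In the tumour-free libraries the sum ran from 142 to 221 CPM in 5 of them and reached 798 CPM in untreated 7. Of the members, 41 of 44 had all 3 tumour-bearing libraries above all 6 others, while 3.08% of the 17876 genes tested had this separation. With each tumour-free value raised to a floor of 3 counts in its library, the lowest tumour-bearing value was over 100 times the highest tumour-free value for 7 members (Mb, Myoz1, Ttn, Xirp2, Ampd1, Mylpf and Lmod2) and over 10 times for 30. The exceptions were Pdlim3, Myom1 and Unc45b, described with their roles. In bulk tissue, more muscle fibres in a sample and more of these RNAs per cell cannot be told apart.

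**Figure D1:**
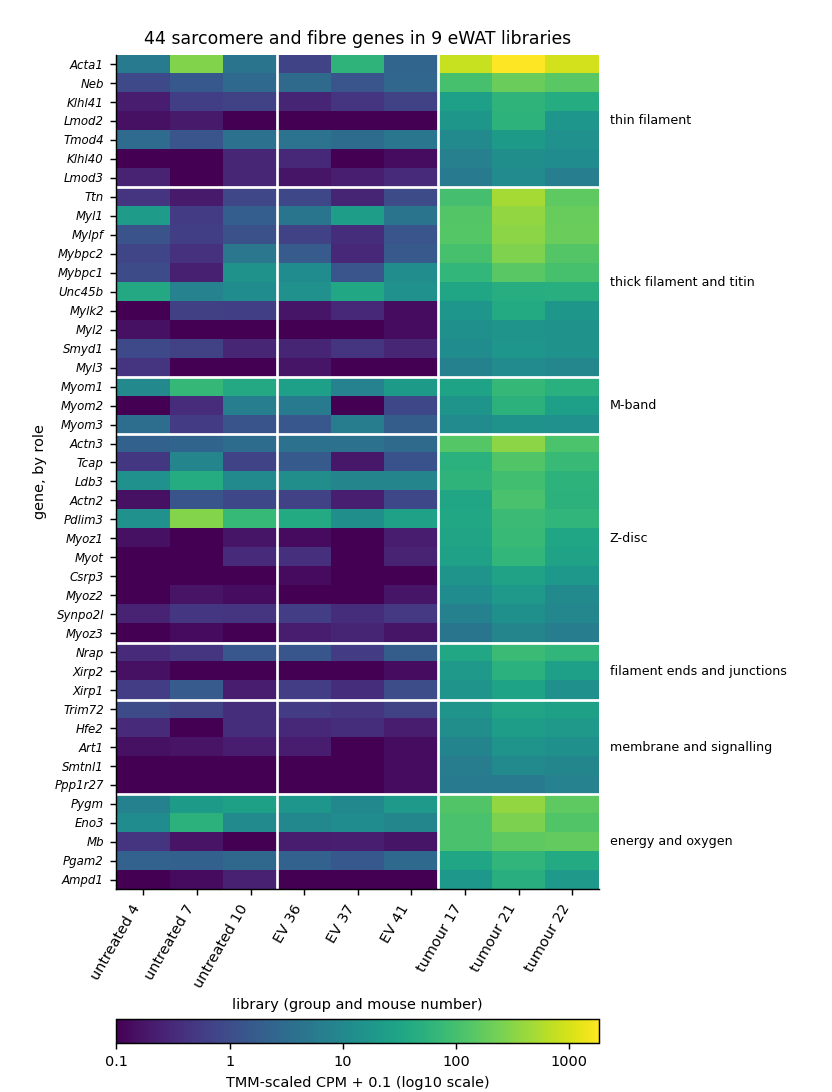
Heat map of the 44 genes (rows, grouped by role) in the 9 libraries (columns), as TMM-scaled CPM plus 0.1 on a log10 colour scale. The 3 tumour-bearing columns are bright in nearly every row, whereas Acta1 and Pdlim3 are also high in untreated 7, at 287 and 293 CPM.

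Against untreated mice, the median log2 fold change of the 44 members was 6.46, against −0.121 over all genes, and 43 were positive. With Csrp3, Smtnl1 and Ppp1r27, which had 0 counts in all untreated libraries, set at a lower bound, the median was 6.17. At an adjusted p under 0.05 in edgeR's quasi-likelihood test, 20 of the 44 were called higher, where 39 of 17876 genes (0.218%) were called higher in all. Against EV-injected mice the median was 6.30, all 44 were positive, and 21 were called, where 0.246% of genes were called higher. Since the members were selected on these libraries, both counts describe the choice. The comparisons share the tumour-bearing libraries. Leaving out single libraries moved the counts from 20 to between 5 (without tumour 22) and 21, and from 21 to between 0 (without EV 36) and 31. The share of all genes called fell too, to 0.0433% without tumour 22 and to 0% without EV 36. Actn3, Neb, Mylpf, Mb and Pgam2 were called against untreated whichever library was left out.

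Among the thin filament genes, all 7 members were higher in every tumour-bearing library than in any other, as were 3.08% of all genes tested. Acta1, skeletal α-actin, was at 811, 1834 and 935 CPM in tumour 17, 21 and 22. It was at 5.44, 287 and 4.23 CPM in untreated 4, 7 and 10, and at 0.645, 59.7 and 2.38 CPM in EV 36, 37 and 41. Among the tumour-free libraries Acta1 was high in untreated 7 and EV 37 and low in the other 4, and its log2 fold change of 3.59 ± 2.001 (SE) against untreated carried the widest error of all members. Neb, the giant protein nebulin that runs along the thin filament, was at 106, 191 and 148 CPM in tumour 17, 21 and 22, and between 0.785 and 2.87 CPM elsewhere. In the tumour-free libraries Neb was highest where ovary was present, at 2.79 CPM in untreated 10, 2.87 CPM in EV 36 and 2.42 CPM in EV 41. It was lower in untreated 4, untreated 7 and EV 37, at 0.785, 1.42 and 1.21 CPM. Its groups did not overlap and its log2 fold change was 6.46 ± 0.60 (SE).

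Tmod4, a tropomodulin that caps the pointed end of the thin filament, had a narrower gap. It was at 11.03, 21.3 and 14.2 CPM in tumour 17, 21 and 22, at 3.03, 1.21 and 3.92 CPM in untreated 4, 7 and 10, and at 4.12, 3.15 and 4.53 CPM in EV 36, 37 and 41. Every tumour-free library held Tmod4, and its log2 fold change against untreated, 2.51 ± 0.50 (SE), was the smallest of this role. Lmod2 and Lmod3, leiomodins that nucleate actin at the pointed end, averaged 31.1 ± 23.1 and 7.78 ± 3.08 CPM (SD, n = 3) in tumour-bearing mice and stayed at or under 0.227 CPM elsewhere. Lmod2 had 0 counts in all EV libraries, and was at least 267-fold higher in tumour-bearing mice against a floor of 3 counts per library, which covers counting error only. Klhl41 and Klhl40, kelch proteins that stabilise thin filament proteins, averaged 43.1 ± 16.8 and 10.7 ± 3.25 CPM (SD, n = 3) in tumour-bearing mice, against at most 0.567 and 0.215 CPM in any tumour-free library.

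Of the 10 genes of the thick filament and titin, 9 were higher in all tumour-bearing libraries, as were 3.08% of all genes tested. Ttn, encoding titin, was at 100, 484 and 159 CPM in tumour 17, 21 and 22. In the other libraries Ttn was at 0.336, 0.104 and 0.717 CPM in untreated 4, 7 and 10, and at 0.752, 0.172 and 0.831 CPM in EV 36, 37 and 41. Titin RNA was therefore over 120-fold higher in the lowest tumour-bearing library than in the highest tumour-free one, and it was also the member that differed most among the tumour-bearing mice. Myl1, the essential light chain of fast myosin, was at 133, 367 and 188 CPM in tumour 17, 21 and 22. It was at 22.5, 0.449 and 1.81 CPM in untreated 4, 7 and 10, and at 4.51, 23.6 and 4.27 CPM in EV 36, 37 and 41, so that the fat-rich libraries untreated 4 and EV 37 held the most of it among tumour-free mice. Mylpf, the regulatory light chain of fast myosin, did not share this: it was at 137, 327 and 196 CPM in tumour 17, 21 and 22, at 1.12, 0.519 and 1.06 CPM in untreated 4, 7 and 10, and at 0.573, 0.259 and 1.25 CPM in EV 36, 37 and 41.

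The myosin-binding C proteins, which tether myosin heads along the thick filament, were highest, among the tumour-free libraries, where ovary was present. Mybpc1, the slow isoform, was at 14.5, 11.8 and 12.4 CPM in untreated 10, EV 36 and EV 41, at 0.841, 0.138 and 1.25 CPM in untreated 4, untreated 7 and EV 37, and at 67.7, 148 and 106 CPM in tumour 17, 21 and 22. Mybpc2, the fast isoform, was at 4.72, 1.58 and 1.44 CPM in the ovary-containing libraries, at 0.673, 0.311 and 0.215 CPM in untreated 4, untreated 7 and EV 37, and at 105, 273 and 130 CPM in tumour 17, 21 and 22. The ovary markers of these libraries are given above; their part in these levels was not tested.

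Unc45b, the chaperone that folds myosin in striated muscle, was an exception. It was at 37.6, 7.78 and 11.8 CPM in untreated 4, 7 and 10, at 14.1, 35.8 and 14.2 CPM in EV 36, 37 and 41, and at 32.3, 45.3 and 46.5 CPM in tumour 17, 21 and 22. Tumour 17 fell inside the range of the tumour-free libraries, and the tumour-bearing libraries lay close to the fat-rich untreated 4 and EV 37, with a log2 fold change of 1.12 ± 0.62 (SE) against untreated. The slow light chains Myl2 and Myl3 were near 0 in tumour-free mice. Myl2 had 1 count over the 3 untreated libraries and 819 over the tumour-bearing ones, a ratio of 1080 with a 95% counting interval of 193 to 42700, and its tumour-bearing values of 13.8, 15.9 and 14.6 CPM were the most even of any member. Myl3 averaged 9.36 ± 1.96 CPM, Mylk2, the skeletal myosin light chain kinase, 25.1 ± 12.8 CPM, and Smyd1, a methyltransferase needed for thick filament assembly, 14.5 ± 2.67 CPM in tumour-bearing mice (SD, n = 3). None of these 3 exceeded 0.785 CPM in a tumour-free library.

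The M-band had the smallest differences of the 7 roles against untreated, with a median log2 fold change of 3.06. None of its 3 members was called, where 0.218% of all genes were called higher. Its genes encode the myomesins, which cross-link thick filaments. Myom1 was at 10.0, 68.7 and 36.9 CPM in untreated 4, 7 and 10, at 25.8, 7.71 and 21.3 CPM in EV 36, 37 and 41, and at 30.1, 70.2 and 51.3 CPM in tumour 17, 21 and 22. Its groups overlapped, with untreated 7 above tumour 17 and 22, and its log2 fold change was 0.39 ± 0.68 (SE). Myom2, the myomesin of fast fibres, was at 0, 0.242 and 6.68 CPM in untreated 4, 7 and 10, at 5.95, 0 and 0.756 CPM in EV 36, 37 and 41, and at 16.0, 55.3 and 25.7 CPM in tumour 17, 21 and 22. Myom3 was at 3.31, 0.449 and 1.17 CPM in untreated 4, 7 and 10, at 1.33, 6.08 and 1.70 CPM in EV 36, 37 and 41, and at 11.1, 15.6 and 14.2 CPM in tumour 17, 21 and 22. The members of this family thus had different tumour-free patterns: Myom1 was highest in untreated 7, Myom2 in the ovary-containing libraries untreated 10 and EV 36, and Myom3 in the fat-rich pair.

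Of the 11 Z-disc genes, 10 were higher in all tumour-bearing libraries, as were 3.08% of all genes tested. Actn3, the α-actinin of fast fibres, was at 140, 328 and 113 CPM in tumour 17, 21 and 22. It was at 2.02, 2.28 and 3.17 CPM in untreated 4, 7 and 10, and at 3.94, 3.88 and 2.87 CPM in EV 36, 37 and 41, a low but even level. Actn2, the α-actinin of all striated muscle, was at 32.4, 110 and 54.3 CPM in tumour 17, 21 and 22, at 0.0561, 1.18 and 0.755 CPM in untreated 4, 7 and 10, and at 0.573, 0.129 and 0.756 CPM in EV 36, 37 and 41. Tcap, telethonin, which caps titin at the Z-disc, was at 52.4, 126 and 74.2 CPM in tumour 17, 21 and 22, at 0.392, 8.50 and 0.641 CPM in untreated 4, 7 and 10, and at 1.54, 0.0862 and 1.10 CPM in EV 36, 37 and 41.

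Pdlim3 and Ldb3, PDZ and LIM proteins that bind α-actinin, had a strong tumour-free signal. Pdlim3 was at 14.2, 293 and 71.4 CPM in untreated 4, 7 and 10, at 39.5, 13.2 and 27.7 CPM in EV 36, 37 and 41, and at 36.1, 81.7 and 64.1 CPM in tumour 17, 21 and 22. All 3 tumour-bearing values lay inside the tumour-free range, and Pdlim3 was the only member with a negative log2 fold change against untreated, −1.06 ± 0.91 (SE). Ldb3 was at 14.4, 42.8 and 10.3 CPM in untreated 4, 7 and 10, at 12.5, 8.53 and 8.73 CPM in EV 36, 37 and 41, and at 58.4, 95.02 and 57.3 CPM in tumour 17, 21 and 22. Among the tumour-free libraries both genes were highest in untreated 7, whereas Ldb3 was higher still in all tumour-bearing ones. Smooth muscle markers summed to 16600 CPM in untreated 7. They summed to 1040 to 3530 CPM in the other tumour-free libraries and to 767 to 2180 CPM in the tumour-bearing ones. None of the 9 smooth muscle markers was higher in all tumour-bearing libraries; the part of smooth muscle in the levels of Pdlim3 and Ldb3 was not tested.

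The remaining Z-disc genes were close to 0 without a tumour. The calsarcins Myoz1, Myoz2 and Myoz3, which link α-actinin to calcineurin, averaged 45.8 ± 24.7, 13.8 ± 4.66 and 6.46 ± 2.20 CPM in tumour-bearing mice (SD, n = 3) and stayed at or under 0.172 CPM elsewhere. Myot, myotilin, averaged 41.2 ± 22.2 CPM and Synpo2l, an actin-binding Z-disc protein, 9.97 ± 3.19 CPM (SD, n = 3), against at most 0.287 and 0.502 CPM in any tumour-free library. Csrp3, the muscle LIM protein of slow fibres and heart, had 0 counts in the untreated libraries and 1 in the EV libraries, against 1173 in the tumour-bearing ones. It was at least 166-fold higher than in untreated mice, against the floor of 3 counts per library.

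The genes of filament ends and junctions and of the membrane were nearly silent in tumour-free fat. Nrap, which anchors filaments where the muscle meets its tendon, was at 36.3, 80.4 and 62.9 CPM in tumour 17, 21 and 22, at 0.224, 0.346 and 1.36 CPM in untreated 4, 7 and 10, and at 1.29, 0.474 and 1.70 CPM in EV 36, 37 and 41. Xirp2, an actin-binding Xin-repeat protein, was at 19.7, 53.0 and 25.3 CPM in tumour 17, 21 and 22, and had 1 count over the untreated and 1 over the EV libraries. Its tumour-bearing to untreated ratio was 2350, with a 95% counting interval of 422 to 93100. Xirp1 was less silent, at 16.1, 29.5 and 13.8 CPM in tumour 17, 21 and 22, 0.505, 1.59 and 0.113 CPM in untreated 4, 7 and 10, and 0.502, 0.259 and 0.907 CPM in EV 36, 37 and 41.

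All 5 membrane and signalling genes were higher in all tumour-bearing libraries than in any other, as were 3.08% of all genes tested. Trim72, which repairs tears in the fibre membrane, was at 16.2, 30.5 and 26.1 CPM in tumour 17, 21 and 22, 0.841, 0.588 and 0.264 CPM in untreated 4, 7 and 10, and 0.466, 0.345 and 0.567 CPM in EV 36, 37 and 41. Hfe2, hemojuvelin, a co-receptor for bone morphogenetic proteins made in muscle and liver, was at 12.8, 23.8 and 19.9 CPM in tumour 17, 21 and 22, 0.224, 0 and 0.264 CPM in untreated 4, 7 and 10, and 0.215, 0.259 and 0.113 CPM in EV 36, 37 and 41. Art1, an ADP-ribosyltransferase of the fibre surface, averaged 12.7 ± 4.05 CPM in tumour-bearing mice (SD, n = 3) and at most 0.113 CPM elsewhere. Smtnl1, a smoothelin-like protein, and Ppp1r27, a regulatory subunit of protein phosphatase 1, had 0 counts in all untreated libraries and 1 each in the EV libraries. They were at least 67.1-fold and 49.9-fold higher than in untreated mice against the floor.

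Among the 5 genes of energy and oxygen supply, Mb had the highest and Eno3 the lowest log2 fold change against untreated, whereas Pygm had the lowest against EV-injected mice. Mb encodes myoglobin, the oxygen store of slow and oxidative fibres. It was at 111, 158 and 174 CPM in tumour 17, 21 and 22, 0.336, 0.0691 and 0 CPM in untreated 4, 7 and 10, and 0.107, 0.129 and 0.0756 CPM in EV 36, 37 and 41, an over 330-fold step from the highest tumour-free to the lowest tumour-bearing value. Eno3, the muscle enolase, was at 110, 261 and 125 CPM in tumour 17, 21 and 22, 11.9, 54.4 and 10.3 CPM in untreated 4, 7 and 10, and 9.64, 11.9 and 8.84 CPM in EV 36, 37 and 41, so untreated 7 stood above the other tumour-free libraries. Pygm, the muscle glycogen phosphorylase, was at 126, 368 and 161 CPM in tumour 17, 21 and 22, 7.46, 20.9 and 26.7 CPM in untreated 4, 7 and 10, and 17.5, 9.82 and 19.7 CPM in EV 36, 37 and 41. Here the fat-rich pair had the lowest values and the ovary-containing libraries and untreated 7 the higher ones. Pgam2, the muscle phosphoglycerate mutase, was at 32.3, 63.6 and 40.5 CPM in tumour 17, 21 and 22, 2.07, 1.97 and 2.53 CPM in untreated 4, 7 and 10, and 2.08, 1.42 and 2.80 CPM in EV 36, 37 and 41, the most even tumour-free level of the role. Its log2 fold change against untreated, 4.37 ± 0.39 (SE), had the smallest error of all members. Ampd1, the muscle AMP deaminase, averaged 28.5 ± 16.7 CPM in tumour-bearing mice (SD, n = 3). It had 0 counts in all EV libraries, which made it at least 244-fold higher in tumour-bearing than in EV-injected mice, and at most 0.151 CPM in an untreated one.

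Per kilobase of annotated transcript, a scale on which genes can be compared, Acta1 led the members in the tumour-bearing libraries with a mean of 825 CPM per kilobase. The fast light chains followed, Mylpf at 287 and Myl1 at 212 CPM per kilobase, then Mb at 134 and Eno3 at 106 CPM per kilobase. The slow light chains Myl2 and Myl3 were at 20.2 and 9.99 CPM per kilobase. Actn3 was at 67.1 and Actn2 at 21.8 CPM per kilobase, and Myoz1 at 35.5, Myoz2 at 11.7 and Myoz3 at 1.88 CPM per kilobase. The giants Neb and Ttn, with transcripts of 22489 and 106824 bases, were at 6.59 and 2.32 CPM per kilobase. The lengths are of the longest annotated coding transcript, which need not be the isoform present.

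The 3 tumour-bearing libraries were not alike, and the members varied among them in different ways. Tumour 21 exceeded tumour 17 for all 44 members, by a median of 2.11 times, and tumour 22 exceeded tumour 17 for 39, by a median of 1.29 times. The ratio of tumour 21 to tumour 17 ran from 1.07 for Ppp1r27 and 1.15 for Myl2 to 4.83 for Ttn. Its 95% counting intervals were 0.801 to 1.42 for Ppp1r27, 0.963 to 1.37 for Myl2, 1.34 to 1.51 for Mb, 2.28 to 2.51 for Mylpf and 4.59 to 5.09 for Ttn, so the members differed beyond counting error. Neb, the other giant transcript, had a ratio of only 1.81. The ratios of the 5 members known from fast fibres (Actn3, Mylpf, Myl1, Mybpc2 and Myoz1) were 2.34 to 2.76, and those of the 4 known from slow fibres and heart (Myl2, Myl3, Myoz2 and Csrp3) were 1.15 to 1.82. Other isoforms outside these lists fell elsewhere: Mybpc1, the slow binding protein C, had a ratio of 2.19, near the median of all members and close to the fast genes, and Myom2 had 3.46. Between tumour 22 and tumour 17 the same lists ran from 0.804 to 1.43 and from 0.914 to 1.25, and did overlap.

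**Figure D2:**
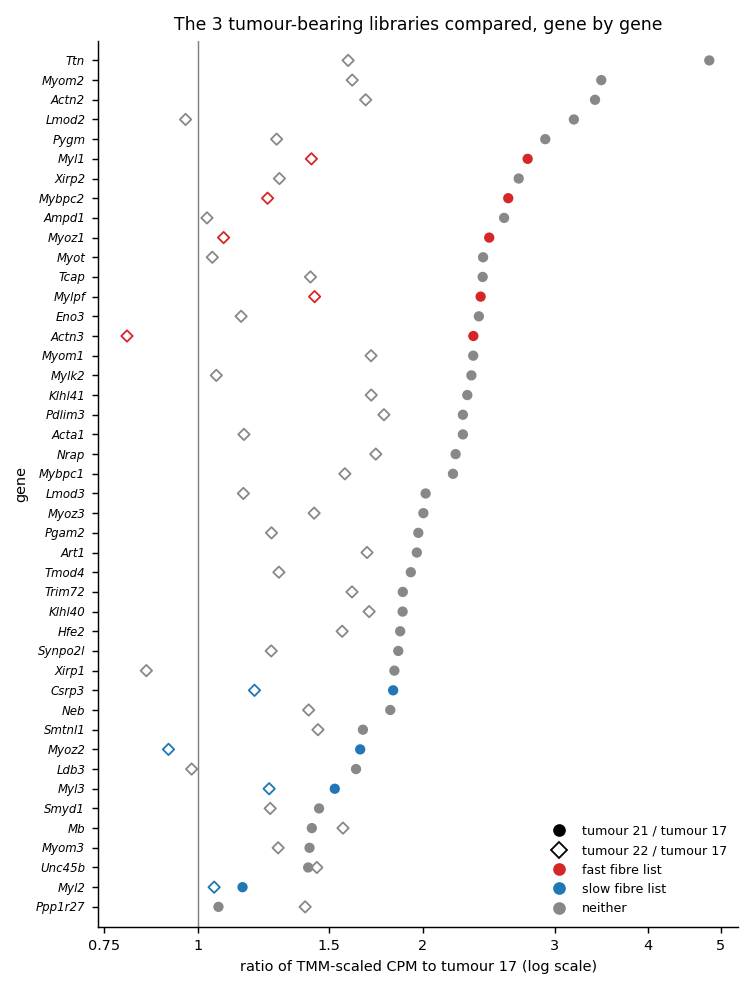
Ratio of TMM-scaled CPM in tumour 21 (filled circles) and tumour 22 (open diamonds) to that in tumour 17, on a log axis, for each of the 44 genes (rows, sorted). The 5 fast fibre genes (red) lie between 2.34 and 2.76 for tumour 21 and the 4 slow fibre genes (blue) between 1.15 and 1.82.

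Expressed as isoform pairs, the Mylpf to Myl2 ratio of levels per kilobase was 9.42, 19.6 and 12.8 in tumour 17, 21 and 22. The Myoz1 to Myoz2 ratio was 2.39, 3.56 and 2.84 in the same order, again highest in tumour 21. The Actn3 to Actn2 ratio went another way, at 4.52, 3.11 and 2.17. Relative to tumour 17, Actn2 was 3.40 times as high in tumour 21 and Actn3 2.34 times. In tumour 22 Actn2 was 1.68 times as high as in tumour 17, whereas Actn3 was at 0.804 of it. These isoform ratios are values of 3 mice of 1 group and carry no test. Mb, Ppp1r27 and Unc45b were higher in tumour 22 than in tumour 21, unlike the other 41. For the membrane and signalling role the median ratio of tumour 21 to tumour 22 was 1.17, against 1.55 over all 44 members.

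Outside the listed members, 42 other genes of muscle fibres were looked up, myosin heavy chains and troponins included. Of these, 12 were called higher and 0 lower against untreated, where 0.218% of all genes were called higher. All 3 tumour-bearing libraries were above the other 6 for 32 of them, and for 3.08% of all genes. The 10 without this separation were Tpm2, Des, Flnc, Dysf, Hspb6, Hspb7, Speg, Dmd, Jph1 and Sgca. The median log2 fold change of the 42 genes was 4.36, with 38 positive and the lowest at −1.16. The 3 with the highest tumour-bearing levels were Atp2a1, the calcium pump of fast fibres, Myh4, the myosin heavy chain of the fastest fibres, and Ckm, muscle creatine kinase. Myh4 was at 322, 1348 and 312 CPM in tumour 17, 21 and 22 and at most 0.392 CPM elsewhere. Atp2a1 was at 377, 1185 and 458 CPM and at most 0.905 CPM elsewhere, while Ckm was at 335, 809 and 355 CPM and reached 88.7 CPM in untreated 7 and 3.76 CPM in EV 36.

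Heart markers did not separate the groups. Of 8 heart markers, 0 were higher in all tumour-bearing libraries, and only 5 of the 8 were kept by the filter. Their sum was 18.4 to 33.6 CPM in tumour-bearing, 8.58 to 129 CPM in untreated and 13.9 to 63.2 CPM in EV-injected mice. Single genes weighed on these sums. Tnnt2 was at 112 CPM in untreated 7, and Tnni3 at 24.6 to 27.6 CPM in the ovary-containing libraries. Of 5 genes of muscle stem cells and myoblasts, 3 (Pax7, Myod1 and Myog) were higher in all tumour-bearing libraries. Of the 17876 genes kept by the filter 3.08% had this separation, but only 2 of the 5 were kept. Pax7 rested on few counts, 5, 1 and 11 in tumour 17, 21 and 22 against 1 in untreated 7. The 5 genes summed to 1.74, 1.91 and 6.30 CPM in tumour 17, 21 and 22, against at most 0.860 CPM elsewhere. Myog, the myogenic factor myogenin, was at 1.12, 0.579 and 3.61 CPM there and had no counts in the other 6 libraries. Of 6 tendon markers 0 were higher in all tumour-bearing libraries, and of 6 genes of the neuromuscular junction 2 were. The part of muscle tissue in the fat samples was not tested.

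Without a tumour, the members fell into different patterns. In all 6 tumour-free libraries 23 of the 44 stayed under 1 CPM, and 19 had 0 counts in at least 1 of them. Of the other 21, Acta1, Pdlim3, Eno3, Ldb3 and Tcap were at least 2 times higher in untreated 7 than in any other tumour-free library. Mybpc1, Mybpc2, Myom2, Neb, Nrap, Tmod4 and Pgam2 were higher in all 3 ovary-containing libraries than in the other 3, by a small margin for Tmod4 and Pgam2. Unc45b, Myl1 and Myom3 were highest in the fat-rich pair. These patterns crossed the untreated and EV groups and were described after the values were seen.

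**Figure D3:**
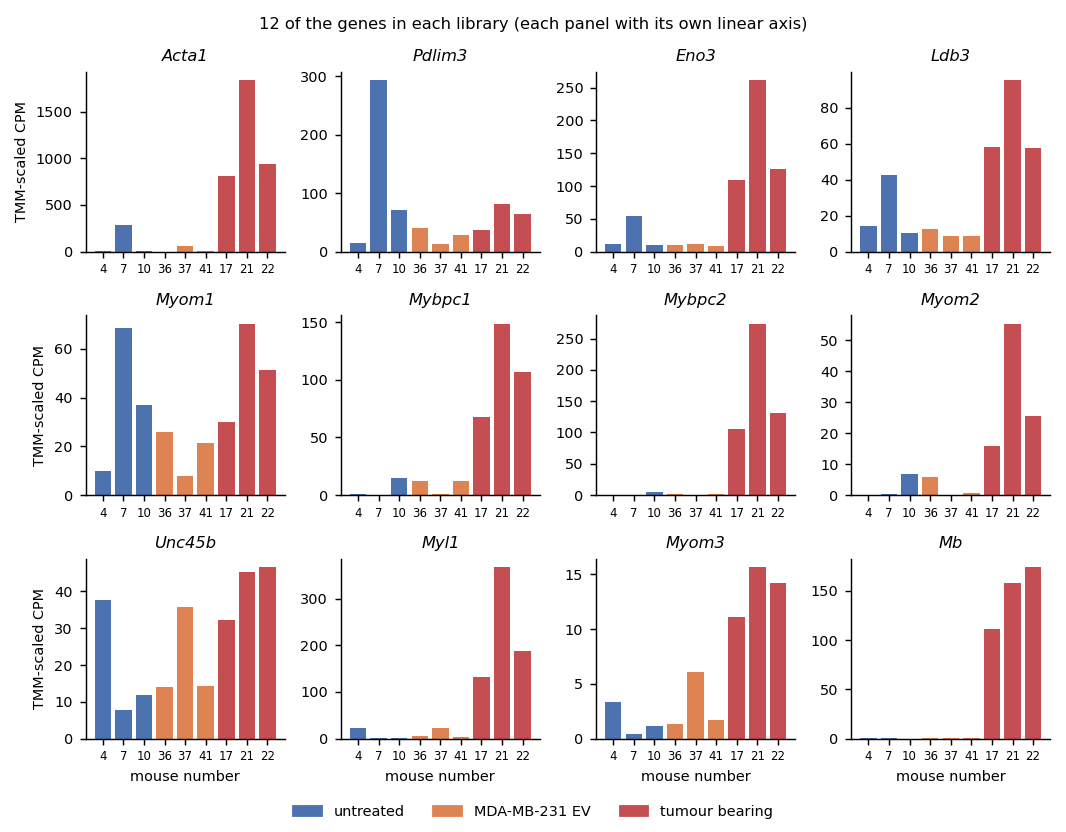
TMM-scaled CPM of 12 of the genes in each library (bars, 1 mouse each; linear axes from 0, different in each panel). Pdlim3 is highest in untreated 7 at 293 CPM, Mybpc1 is at 11.8 to 14.5 CPM in mice 10, 36 and 41, Unc45b is at 37.6 and 35.8 CPM in mice 4 and 37, and Mb is at or under 0.336 CPM in all but the tumour-bearing mice.

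The comparison of EV-injected with untreated mice leaves out the tumour-bearing libraries. The members were chosen with the values of all 9 libraries known, however, so genes low in both tumour-free groups may have been favoured and the count below is not independent of the choice. The comparison asks whether vesicles of the tumour cells, without the tumour, were accompanied by a change of these genes. None of the 44 members was called by edgeR's quasi-likelihood test (adjusted p = 1 for every member), where 1 of 17876 genes (0.00559%) was. At an unadjusted p under 0.05 there were 3 of the 44 members and 212 of all genes. DESeq2 and limma also called 0 members, where they called 0.0533% and 0.0388% of all genes. The median log2 fold change of the members was −0.122, against −0.00153 over all genes, with 19 positive and 25 negative.

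The 3 members with an unadjusted p under 0.05 rested on few counts or on untreated 7. Myoz3 had a log2 fold change of 2.73 ± 0.90 (SE), on 1 count in the untreated libraries. Ampd1 had −3.71 ± 1.46 (SE), with 0 counts in the EV libraries and at most 0.151 CPM in an untreated one. Pdlim3 had −2.23 ± 0.94 (SE), with 293 CPM in untreated 7. The standard errors of the 44 members had a median of 0.921 on the log2 scale and ran from 0.348 (Pgam2) to 1.89 (Acta1), so changes of a few fold in either direction were not detectable here for many of them. For Pgam2, Actn3 and Neb, the log2 fold changes were −0.06 ± 0.35, 0.51 ± 0.41 and 0.37 ± 0.49 (SE).

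**Figure D4:**
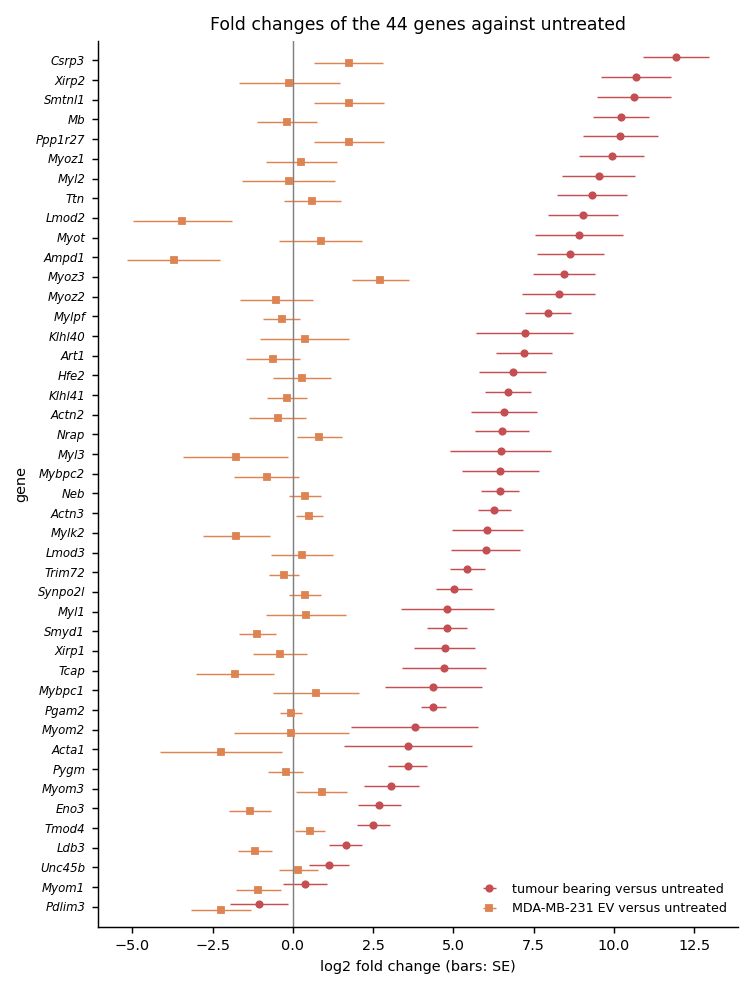
Log2 fold change against untreated, with its standard error as a bar, for tumour-bearing (circles) and EV-injected mice (squares), 44 genes in rows; both share the untreated libraries, and fitted values of genes with 0 counts in a group are not bounds. The tumour-bearing values run from −1.06 (Pdlim3) upward with a median of 6.46, the EV values lie on both sides of 0 with a median of −0.122.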

How the data were processed

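The deposited table, made by the authors with RSEM after SeqPrep and Sickle trimming, HISAT2 alignment and StringTie assembly per the study's methods, holds expected counts (estimated, not whole) for 53700 gene IDs. Bowtie 0.12.2 and the genome builds mm8 and mm9 appear in the submitters' processing notes; the annotation used was not given in the sources at hand. Symbols came from the reference gene table (52093 IDs). Deposited columns named TPM by the authors were read as a score, since 50 of the 55 member values with 0 counts were above 0 there; they appear to be adjusted further, possibly for batches that no label gives.

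After rounding, counts entered a fit in edgeR 4.0.16 under R 4.3.3 (filterByExpr, 17876 genes and all 44 members kept; TMM; quasi-likelihood test, 1 term for group, 9 libraries; Benjamini-Hochberg over all genes). The biological coefficient of variation was 62.8%. Levels are TMM-scaled CPM. Standard errors were worked back from the test and are unreliable for genes with few counts. Ratios on 1 to 3 counts carry exact 95% counting intervals. Alternatives used DESeq2 1.42.0 and limma 3.58.1 (log2 of value + 1). Figures were drawn with matplotlib 3.10.9.

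The members, lists, tests and alternatives were chosen with earlier results of these data known. Every member was named; values per library were given for the top 2 of each role by tumour-bearing level, for members at 1 CPM or more in a tumour-free library, and for those overlapping between groups. Myl2, Mb, Myog and isoform ratios were added after their values were seen. Lengths are from GENCODE M21, and promoters from RefSeq (GRCm38.p6). Mouse numbers show that each library came from its own mouse.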

Additional observations from a re-analysis of the deposited data

How the results depend on the processing

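The direction of the members' median log2 fold change against both tumour-free groups held in every alternative, but the counts of calls did not. Against untreated and against EV-injected mice, DESeq2 called 38 and 38 members, in place of 20 and 21, while calling 4.12% and 4.71% of all genes. The limma fit on the deposited TPM columns, which held 43 members, called 0 and 0, where it called 0.00646% and 0.0517% of all genes. Its medians were 1.76 and 2.01. Those columns appear to be adjusted beyond a plain TPM, and what was removed from them was not tested. Another fit left out untreated 7 and 10 and EV 36 and 41, the 4 libraries where ovary or smooth muscle markers were highest. There 1 library stayed in each tumour-free group, assumed to vary like the others, so only effect sizes are given. The medians were 7.69 and 6.93. Without scaling factors 14 and 15 members were called, where 0.145% and 0.173% of all genes were. The median against untreated was then 5.96, and the median over all genes moved from −0.121 to −0.447.

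Leaving out 1 library at a time, the count against untreated ran from 5 (without tumour 22) to 21 (without EV 37). There 0.0433% and 0.206% of all genes were called, against 0.218% with all libraries. The count was 6 without tumour 21, 10 without tumour 17, 11 without untreated 10 and 12 without untreated 4. The shares of all genes called were then 0.0756%, 0.0861%, 0.0927% and 0.141%. The count against EV-injected mice ran from 0 (without EV 36) to 31 (without untreated 7), where 0% and 0.381% of all genes were called. It was 1, 7, 6, 8 and 10 without EV 41, EV 37, tumour 21, tumour 22 and tumour 17. There 0.0109%, 0.0812%, 0.0756%, 0.0811% and 0.0915% of all genes were called. The median against untreated ran from 5.97 to 7.02. For EV-injected against untreated mice 0 members were called in every alternative. The share of all genes called there was at most 0.0533% (DESeq2), and 0% whenever an EV or tumour-bearing library was left out. A count of 0 therefore says little about these members in particular. The median ran from −0.44 (without EV 41) to 0.0768 (without untreated 4). The cause of these changes was not tested. Depth limits the 8 members with 3 counts or fewer over the untreated libraries (Myl2, Myoz1, Myoz2, Myoz3, Csrp3, Xirp2, Smtnl1 and Ppp1r27). No paired analysis was possible because the mice carry different numbers in each group.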

Other observations

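In the deposited columns named TPM, 34 of the 44 members had all 3 tumour-bearing libraries above the other 6, against 41 in the counts. In the counts 3.08% of the 17876 genes tested had this separation. The share over all genes was not worked out for the TPM columns, so the 34 cannot be set against it. In those columns tumour 17 fell at or below the highest tumour-free value for 9 members. Tumour 21 was the highest of the 9 libraries for 41 members in those columns, and for 40 in the counts.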
